A study of Mus musculus with 9 samples.

Results

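Ceacam20, Slc4a5, Fcgr2b, Kcnj16, Myo1g, Arhgap30, Edn2 and Gfra3 encode proteins of the cell membrane and its signalling, and their signals were higher in Xpc-null mouse embryonic stem cells than in cells that kept or had recently lost Xpc. These 8 genes, of 19909 genes tested, were chosen by their measured differences on these same arrays, null minus floxed and null minus induced. Their differences between null and the other cells are therefore given as descriptions, with no test. They were read from every probe of the array that carries one of their names, which gave 10 of 55676 probes, and all 8 genes passed the filter on dim probes.

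The cells are a mouse embryonic stem cell line in which Xpc, a DNA damage recognition factor of nucleotide excision repair, can be deleted by Cre recombinase acting on loxP sites. The null group is a subclone of that line in which Xpc is permanently deleted, the induced group carries the floxed allele and was titled +Tx and taken 4 days after deletion, and the floxed group carries the same allele without deletion. Each group was measured on 3 single-colour Agilent arrays hybridised with Cy3-labelled RNA, and whether the arrays of a group come from separate cultures is not stated, so a p-value here measures the spread between these arrays. The null cells are subcloned, so loss of Xpc and the choice of cells cannot be told apart, and no array shows the induction agent or Cre alone.

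Signals are given as log2 values relative to the 75th percentile of the same array, so 0 is the level of that percentile, and values are compared only between arrays for 1 probe. Between 47.4% and 57.9% of the spots on an array were well above background by the scanner software. Xpc itself was at -0.85, -1.53 and -1.36 on the null arrays and at -1.09, -0.67 and -1.05 on the induced arrays, against 0.59, 0.56 and 0.17 on the floxed arrays. The null arrays thus held 31.2% and the induced arrays 38.5% of the floxed level (limma adjusted p = 0.00607 and 0.223). Both calls depended on the slides or on floxed array 3: null against floxed had an adjusted p of 0.178 with slide as a fixed block, and induced against floxed had 0.0316 without floxed array 3. Floxed array 3 stood apart from the other arrays of its group. On the first principal component, which held 47.3% of the variance, it scored 24.1, against -32.6 and -33.9 for floxed arrays 1 and 2, and the null arrays scored 29.1, 36.1 and 32.1. The slides were unevenly filled: floxed arrays 1 and 2 were on slide 1, null array 3 and floxed array 3 on slide 2, and null arrays 1 and 2 with all induced arrays on slide 3. With slide as a fixed block, null against floxed thus rests on null array 3 and floxed array 3 alone. Induced and floxed share no slide, so that fit links them through the null arrays of slides 2 and 3. In both comparisons its floxed side is floxed array 3 alone. Results that rest on floxed array 3 are given with and without it.

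Membrane proteins of these kinds are mostly known from specialised cells. Fc receptors such as Fcgr2b bind the constant part of antibodies on blood cells, class I myosins such as Myo1g tie the membrane to actin filaments, and GTPase-activating proteins such as Arhgap30 switch off small GTPases that shape that actin. Slc4a5 and Kcnj16 move ions, Edn2 and Gfra3 belong to ligand and receptor pairs, and Ceacam20 is a cell surface protein of the immunoglobulin superfamily known from intestinal microvilli. All are measured here in bulk RNA, where fewer cells of a type and less RNA per cell cannot be told apart.

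Ceacam20 and Slc4a5 each have a second probe, and the 30 bases at the end of each of the 4 probes are shown because the results below turn on whether the probes of a gene behave alike. Capitals mark AATAAA, the usual polyadenylation signal, which was searched on the probe strand.
Ceacam20, transcript position 2090: aactccagcttctagggatccaataccctc
Ceacam20, transcript position 2828: caggcatataaaAATAAAgataaactattt
Slc4a5, transcript position 3848: ccaccatagatataacctttctcgtgaaaa
Slc4a5, transcript position 3375: gatccccaaaacggtatccactgtgttgcc
The 2 Ceacam20 probes lie on the plus strand at chr7:20575656-20575715 and chr7:20576394-20576453, and those of Slc4a5 on the plus strand at chr6:83253664-83253723 and chr6:83249444-83249503, all in mm9 as the files give it. AATAAA was found in the Ceacam20 probe at position 2828 and in none of the other 3. It was present in 10.1% of all probes of the array and in 4 of the 10 member probes, namely this one and those of Myo1g, Arhgap30 and Kcnj16. A match is a description of the letters and says nothing on where transcripts end in these cells.

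Ceacam20 stood at -0.65, -0.52 and -0.52 on the null arrays, at -1.82 on each of the 3 induced arrays and at -2.63, -2.09 and -2.32 on the floxed arrays, by its brighter probe. The 3 groups did not overlap, with null highest, induced next and floxed lowest. Null exceeded floxed by 1.78 ± 0.13 (SE, n = 3 each), a fold of 3.44, and exceeded induced by 1.25 ± 0.13. Floxed array 3 lay between the other floxed arrays, so the null excess was 1.79 without it and 1.81 within slide 2, which holds 1 null and 1 floxed array.

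The second Ceacam20 probe, the one with AATAAA, gave smaller differences. It stood at -1.36, -1.37 and -0.88 on the null arrays, at -1.70, -1.69 and -1.95 on the induced arrays and at -2.34, -1.66 and -1.52 on the floxed arrays. Null remained above both other groups, while induced and floxed overlapped. The null excess over floxed was 0.64 ± 0.24 here and 1.78 at the brighter probe 738 bases away, and the null excess over induced was 0.57 ± 0.24 here and 1.25 there. Over the 9 arrays the probes correlated at r = 0.804, a description of 9 arrays that share groups and slides.

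Slc4a5, an electrogenic sodium bicarbonate cotransporter, stood at 0.86, 1.17 and 0.90 on the null arrays, at -0.30, -0.48 and -0.40 on the induced arrays and at -0.28, -0.48 and -0.40 on the floxed arrays. The induced and floxed arrays covered nearly the same range and every null array lay above both. Null exceeded floxed by 1.36 ± 0.11 (2.57-fold) and induced by 1.37 ± 0.11 (SE, n = 3 each). Floxed array 3 equalled its group here, and the null excess over floxed was 1.36 without it and 1.30 within slide 2.

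The second Slc4a5 probe lies 473 bases upstream in the transcript and 4220 bases upstream on the chromosome. It stood at -0.78, -0.88 and -0.74 on the null arrays, at -1.80, -2.0 and -2.05 on the induced arrays and at -2.03, -2.08 and -1.89 on the floxed arrays. Null exceeded floxed by 1.20 ± 0.13 and induced by 1.15 ± 0.13, and the probes correlated at r = 0.976 over the 9 arrays. Both probes thus separated null from the other groups and left induced and floxed overlapping.

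Fcgr2b, the inhibitory receptor for immunoglobulin G on B cells and myeloid cells, has 1 probe at chr1:172890988-172891047 on the minus strand (mm9), printed as 10 spots on every array. Its values were -2.58, -2.64 and -2.74 on the null arrays, -4.21, -3.98 and -3.97 on the induced arrays and -5.08, -4.74 and -3.63 on the floxed arrays. All null arrays were above the rest, and among floxed arrays array 3 was the highest. Of the spots used, 10 of 10, 9 of 10 and 9 of 10 were well above background on the null arrays. The induced arrays had 0 of 10, 2 of 9 and 1 of 9 such spots, and the floxed arrays had 0 of 10, 0 of 8 and 7 of 9. The probe counts as well above background where most of its spots were, so it was not well above background on any induced array. Set against a floor, null was at least about 2.19-fold higher than induced, beside a measured log2 difference of 1.40 ± 0.31 (2.63-fold). The floor is, on each induced array, the higher of the probe's own value and the lowest signal well above background. A probe not well above background can exceed that lowest signal, as Fcgr2b did on induced array 2 (-3.98 beside -4.02). Such a fold is thus an approximate bound, here and for the members below.

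Against floxed, Fcgr2b in null was higher by 1.82 ± 0.31 and by 0.88 within slide 2, with 1 of 3 floxed arrays well above background. Floxed arrays 1 and 2 give only such an approximate bound, by which null was at least about 1.53-fold higher, beside a measured log2 difference of 2.25. Raw mean signals show how dim the probe was. They ran from 137 to 156 on the null arrays, from 99.6 to 109 on the induced arrays and from 91.8 to 112 on the floxed arrays, over local backgrounds of 30.4 to 48.6. With raw mean signals and no background correction the null excess over floxed was 0.51. The plot of single spots shows the spread within an array, from -5.80 to -3.43 among the 10 spots of induced array 1.

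**Figure D1:**
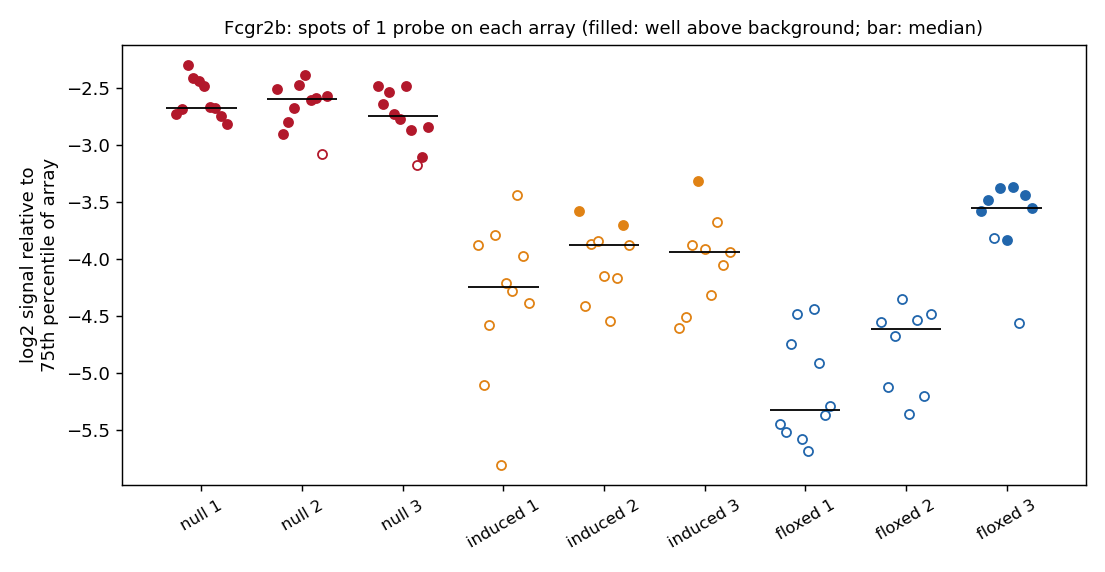
Each point is 1 spot of the Fcgr2b probe (vertical axis: log2 signal relative to the 75th percentile of the array) on each of the null, induced and floxed arrays, outlier spots left out; filled points were well above background and the bar is the median. The null medians lie between -2.75 and -2.60, and of the induced and floxed arrays floxed array 3 has the highest median, -3.55.

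Myo1g, a class I myosin of blood cells, is measured by a probe at chr11:6406555-6406614 on the minus strand. It stood at 0.70, 0.86 and 0.53 on the null arrays, at -0.54, -0.41 and -0.37 on the induced arrays and at -0.96, -1.10 and -0.41 on the floxed arrays. Null did not overlap the other groups, and floxed array 3 lay among the induced values. Null exceeded floxed by 1.52 ± 0.17 (2.87-fold), by 1.72 without floxed array 3 and by 0.95 within slide 2. Its excess over induced was 1.14 ± 0.17 over all arrays and 1.22 within slide 3.

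Arhgap30, a GTPase-activating protein, is measured at chr1:173340298-173340357 on the plus strand. It stood at -1.74, -1.78 and -1.84 on the null arrays, at -2.92, -2.93 and -3.18 on the induced arrays and at -3.54, -3.16 and -2.86 on the floxed arrays. The null arrays lay close together above the rest, and induced and floxed overlapped. Null exceeded floxed by 1.40 ± 0.16 and by 1.03 within slide 2, and it exceeded induced by 1.22 ± 0.16. Floxed arrays 1 and 2 were not well above background. By the same floor null was at least about 2.77-fold higher than these, beside a measured log2 difference of 1.57. With raw mean signals the excess over floxed was 0.67.

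Kcnj16, an inward rectifier potassium channel subunit, is measured at chr11:110889223-110889282 on the plus strand. It stood at -1.83, -1.60 and -1.88 on the null arrays, at -2.57, -2.18 and -2.41 on the induced arrays and at -3.58, -3.93 and -2.70 on the floxed arrays. The groups did not overlap and induced lay between null and floxed. Null exceeded floxed by 1.64 ± 0.27, by 0.82 within slide 2 and by 0.68 with raw mean signals. Floxed arrays 1 and 2 were not well above background. By the same floor null was at least about 2.83-fold higher than these, beside a measured log2 difference of 1.99. Its excess over induced, 0.61 ± 0.27, was the smallest among the 8 members.

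Edn2, a peptide ligand of the endothelin receptors, is measured at chr4:119839682-119839741 on the plus strand. It stood at -0.44, -0.32 and -0.61 on the null arrays, at -2.71, -2.70 and -2.74 on the induced arrays and at -3.04, -2.33 and -0.75 on the floxed arrays. Floxed array 3 lay just under the lowest null array, while floxed arrays 1 and 2 lay near the induced arrays. Null exceeded induced by 2.26 ± 0.46 (4.79-fold) over all arrays and by 2.34 within slide 3. Against floxed the excess was 1.58 ± 0.46 over all arrays, 2.23 without floxed array 3 and 0.13 within slide 2, so the size of this difference depended on that array.

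Gfra3, the receptor that binds artemin and signals with Ret, is measured at chr18:34849560-34849619 on the minus strand. It stood at -2.09, -1.88 and -1.53 on the null arrays, at -3.71, -3.35 and -3.68 on the induced arrays and at -3.44, -2.64 and -2.02 on the floxed arrays. Null and floxed overlapped through floxed array 3, and all induced arrays but array 2 lay below the floxed range and were not well above background. Null exceeded induced by 1.75 ± 0.32, by 1.59 within slide 3 and by 0.66 with raw mean signals, with 1 of 3 induced arrays well above background. Against floxed the excess was 0.86 ± 0.32 over all arrays, 1.20 without floxed array 3 and 0.49 within slide 2.

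**Figure D2:**
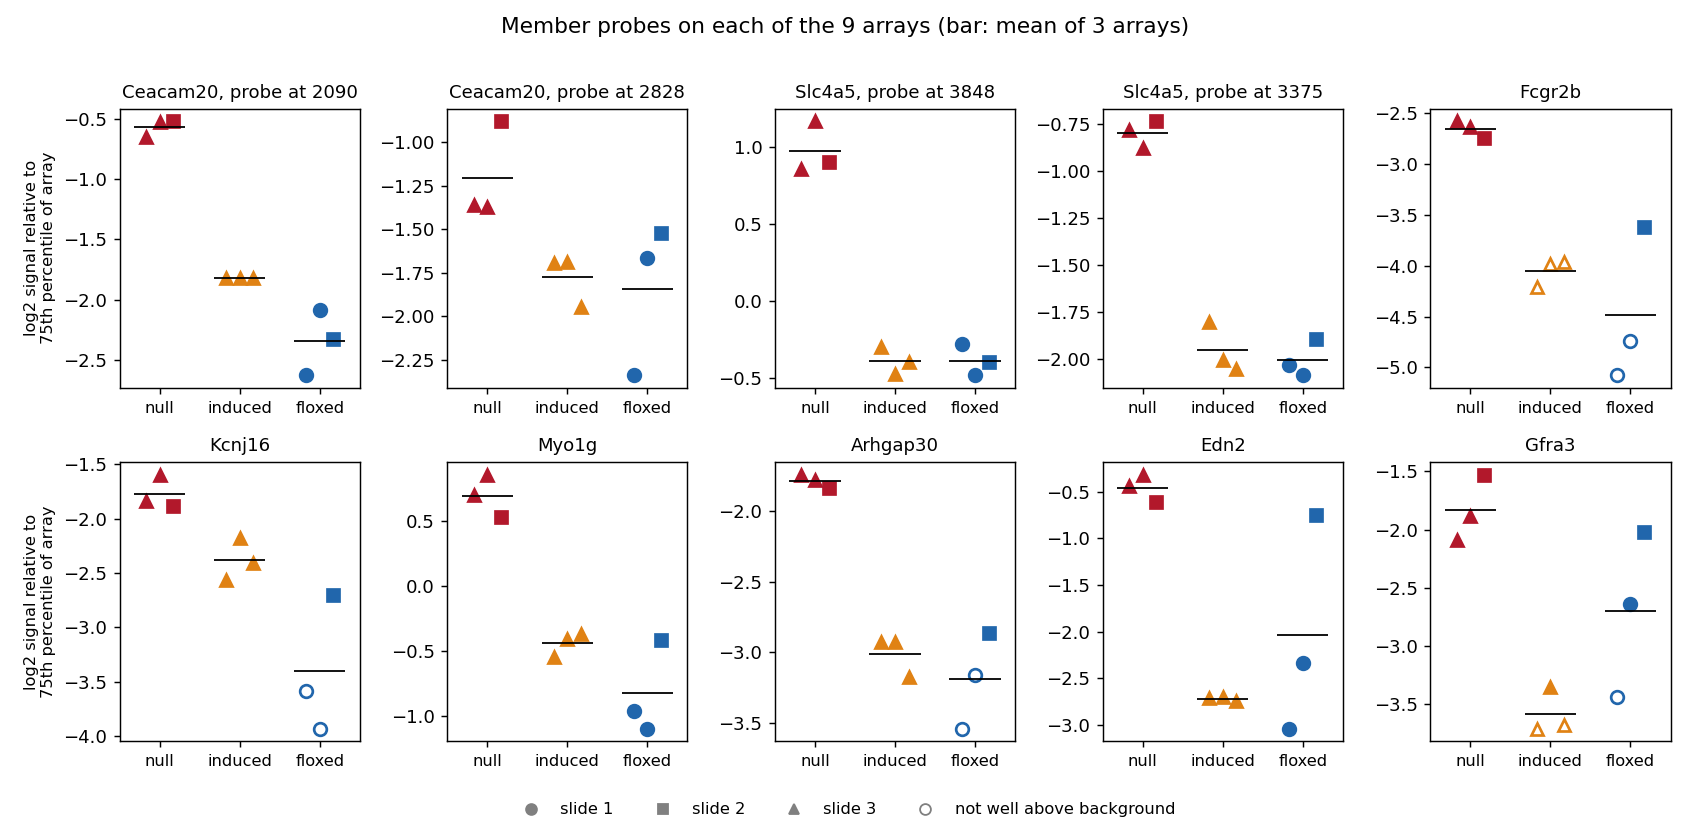
Each panel is 1 probe and each point 1 array (vertical axis: log2 signal relative to the 75th percentile of the array), with null, induced and floxed from left to right; the shape marks the slide, open points were not well above background, and bars are means of 3 arrays. The null arrays lie highest in every panel except that floxed array 3 reaches into the null range for Gfra3.

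Floxed array 3 differed from floxed arrays 1 and 2 in the direction of null for most of the members. At the brightest probes it exceeded their mean by 1.94 for Edn2, 1.28 for Fcgr2b, 1.06 for Kcnj16, 1.02 for Gfra3, 0.61 for Myo1g and 0.49 for Arhgap30. It did so by only 0.03 for Ceacam20, and for Slc4a5 it differed by -0.02. At the second Ceacam20 probe floxed array 3 was the highest of its group, at -1.52 beside -2.34 and -1.66. The median of the 8 was 0.82, beside 0.03 over all genes, where the SD was 0.49, and 7 of 8 members were above 0, beside 53.8% of all genes. All genes are not a like reference here. The members were picked for high null values, and floxed array 3 stood near the null arrays on the first principal component. The part that the slide, the culture or the array takes in this was not tested. Ceacam20 and Slc4a5 are thus the members whose null excess was nearly as large within slide 2 as over all arrays.

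**Figure D3:**
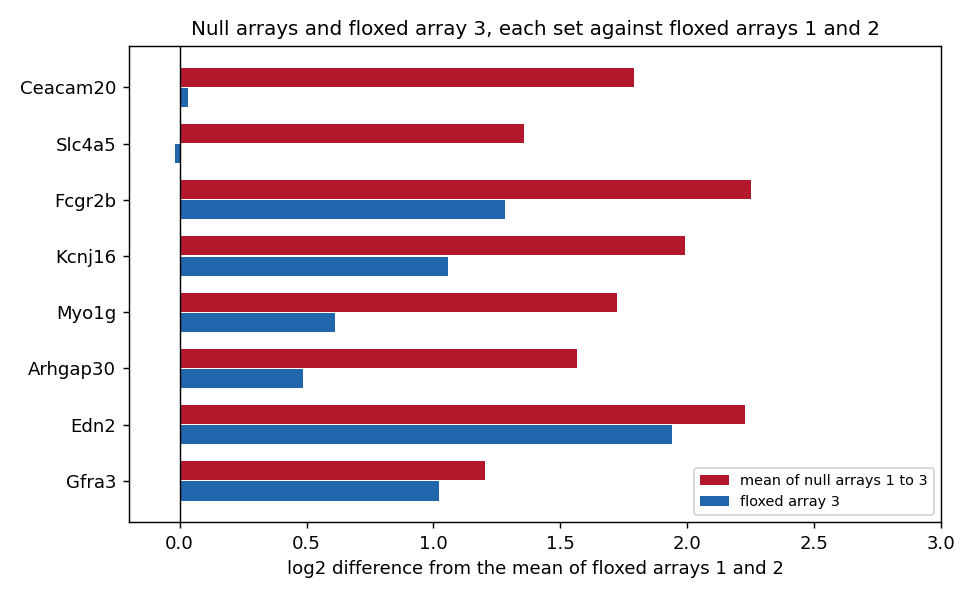
Bars give, at the brightest probe of each member, the log2 difference of the mean of the 3 null arrays and of floxed array 3 from the mean of floxed arrays 1 and 2. Floxed array 3 comes closest to null for Edn2 (1.94 beside 2.23) and Gfra3 (1.02 beside 1.20) and stays near 0 for Ceacam20 and Slc4a5.

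Between null and floxed, 7 of 8 members did not overlap with null higher, where 12.3% of all genes tested did so. Between null and induced it was 8 of 8, beside 18.7% of all genes. Nothing is read from these counts, since the members were picked for them. Over all genes, 1.84% passed at an adjusted p under 0.05 in null against floxed, 0.758% with null higher, and 2.21% in null against induced, 0.668% with null higher. The rank of each member among the genes that passed and were higher is part of the same choice. In null against floxed, Fcgr2b, Ceacam20, Kcnj16, Myo1g, Arhgap30 and Slc4a5 were at ranks 2, 3, 5, 6, 8 and 10 of 151. In null against induced, Edn2, Gfra3, Slc4a5, Ceacam20, Arhgap30 and Myo1g were at ranks 2, 4, 10, 13, 14 and 17 of 133. Fcgr2b and Kcnj16 did not pass in null against induced, and Edn2 and Gfra3 did not pass in null against floxed. Both comparisons share the null arrays.

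The comparison of induced with floxed was not used to pick the members, although it shares the floxed and induced arrays with those that were. A choice by null against floxed favours low floxed values, which tilts this comparison upward. One by null against induced favours low induced values, which tilts it downward. Its directions, counts and p-values are thus partly set by the choice. The comparison therefore cannot settle whether the members had already moved 4 days after deletion. By limma, 0 of 8 members passed, where 0.00502% of all genes did (1 gene). At an unadjusted p under 0.05 there were 3 of 8 members (Ceacam20, Kcnj16 and Gfra3), beside 5.9% of all genes. Of the members, 5 were higher and 3 lower in induced cells, with a median of 0.28 beside 0.003 over all genes. An adjusted p above the threshold does not show that the groups were alike.

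The members took 3 forms in this comparison, which the choice in part sets. Edn2 and Gfra3 ranked among the genes that passed only in null against induced. Ceacam20 at its brighter probe and Kcnj16 were higher on every induced array than on every floxed array, by 0.53 ± 0.13 and 1.02 ± 0.27 (limma adjusted p = 0.512 and 0.562). At the second Ceacam20 probe the groups overlapped, with a difference of 0.07. That is 2 of 8 members, beside 6.86% of all genes whose groups did not overlap with induced higher. Slc4a5, Arhgap30, Myo1g and Fcgr2b differed by -0.0028, 0.18, 0.38 and 0.43 with overlapping groups, and their adjusted p lay between 0.858 and 0.998. Edn2 and Gfra3 were lower in induced cells by the means, with differences of -0.68 ± 0.46 and -0.88 ± 0.32 and adjusted p of 0.957 and 0.708, and their groups overlapped as well. Without floxed array 3 these differences were -0.03 and -0.54. With slide as a fixed block they were -2.21 and -1.11 (limma adjusted p = 0.0503 and 0.271). No slide holds both induced and floxed arrays, so the floxed side of that fit is floxed array 3 alone. Floxed arrays 1 and 2 add nothing to the difference there.

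Floxed array 3 decided the calls of Kcnj16 and Fcgr2b in this comparison. Without it, Kcnj16 was higher in induced cells by 1.37 (limma adjusted p = 0.0237) and Fcgr2b by 0.85 (adjusted p = 0.0383), and 0.784% of all genes passed, against 0.00502% with it. Fcgr2b was not well above background on any of the 5 arrays this compares, so its value there compares signals near background. Kcnj16 was not well above background on the 2 floxed arrays left, and by the approximate bound induced was at least about 1.85-fold higher than these. With slide as a fixed block, where floxed array 3 alone stands for floxed, the difference of Kcnj16 was 0.15 (limma adjusted p = 0.857). For the other 6 members the adjusted p stayed above 0.05 in every alternative tried.

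**Figure D4:**
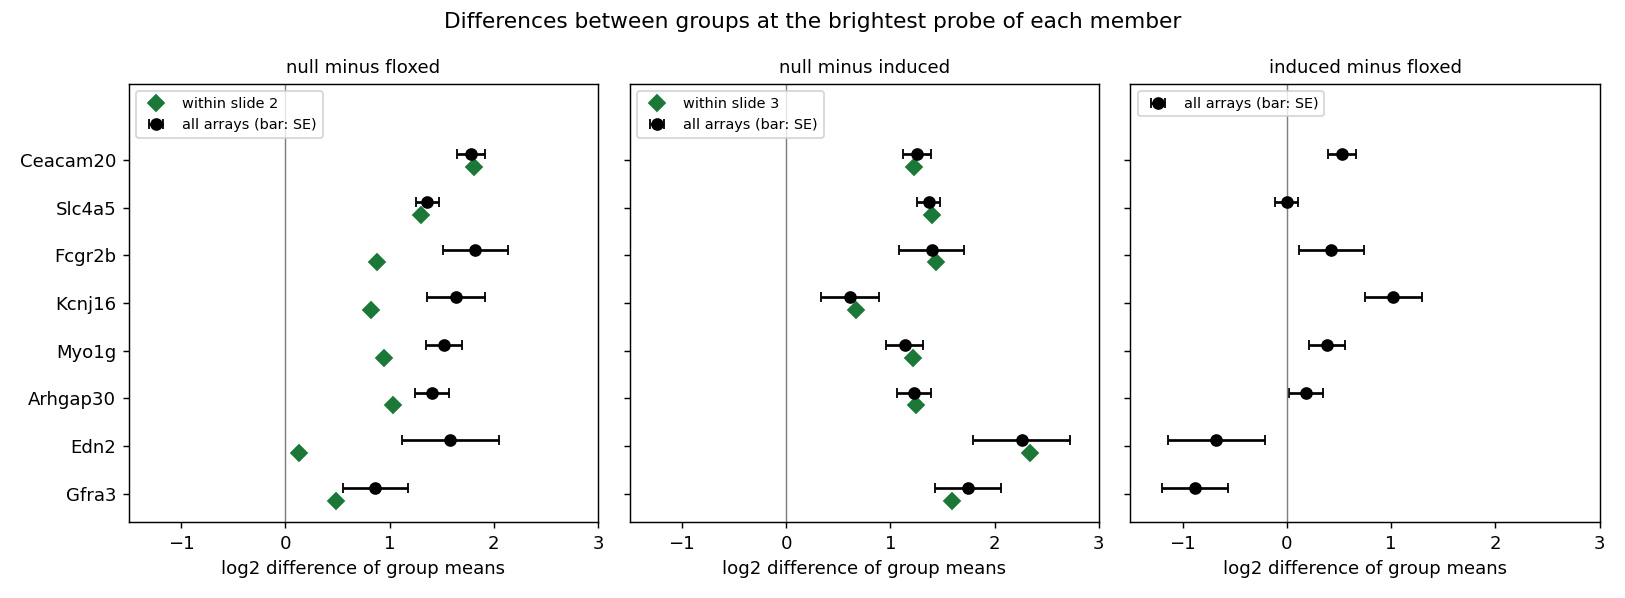
Points give the log2 difference between group means at the brightest probe of each member, with the SE of the fit as bars; diamonds give the difference within the slide that holds both groups (1 null and 1 floxed array on slide 2; 2 null and 3 induced arrays on slide 3). Within slide 2 the null excess over floxed is 0.13 for Edn2 and 1.81 for Ceacam20, while within slide 3 all 8 differences stay close to those over all arrays.

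The differences were smaller where no background was subtracted. With raw mean signals and no background correction, the median null excess of the 8 members was 0.82 over floxed and 0.77 over induced, beside 1.55 and 1.31 for background-subtracted signals. At the brighter probe of Slc4a5 the raw mean signal had a median of 933 on the null arrays, 442 on the induced arrays and 405 on the floxed arrays. The direction of all 8 members in null against both groups stayed the same under each alternative that could test them. Nothing is read from this, since the members were picked for that direction and the alternatives use the same arrays.

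The pathways and families around the members held no gene that passed over all arrays. Lists of 10 kinds held 165 genes apart from the members, of which 100 were tested. By limma 0 of the 100 passed in null against floxed, where 23 had an unadjusted p under 0.05 (23%, beside 22.9% of all genes). In null against induced 0 passed and 27 had an unadjusted p under 0.05, beside 23.8% of all genes. In induced against floxed 0 passed and 8 had an unadjusted p under 0.05, beside 5.9%. Without floxed array 3, 32 of the 100 passed in null against floxed, beside 24.9% of all genes, and 26 of the 100 in null against induced, beside 18.2%.

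Of the ligand and receptor families, the endothelin list had 3 tested genes with a median difference of 0.36 between null and floxed, and none passed. Its gene with the strongest signal was Ecel1, an endopeptidase of the family that includes the endothelin-converting enzymes, with 0.33 (adjusted p = 0.309). The list of ligands and receptors of the GDNF family had 5 tested genes with a median of -0.04, and Gfra4, its strongest signal, differed by -0.20 (adjusted p = 0.657). Its largest difference, named after its values were seen, was that of Gfra2, a receptor of the family, with 1.20 over floxed and 1.42 over induced (adjusted p = 0.0825 and 0.0509). Of the transporter lists, bicarbonate transport had 14 tested genes with a median of 0.04, with carbonic anhydrase Car2 at 0.26 (adjusted p = 0.602). Its largest, named in the same way, was that of the anion exchanger Slc26a4, with 1.96 over floxed (adjusted p = 0.112), which exceeded the difference of each member in that comparison. The inward rectifier channels had 6 with a median of 0.22, with Kcnj4 at -0.33 (adjusted p = 0.463).

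The lists around actin and blood cell signalling were likewise without a call. Class I myosins other than Myo1g had 6 with a median of 0.04, and Myo1c differed by 0.05 (adjusted p = 0.771). Fc receptors and their signalling had 7 with a median of 0.06, and the phosphatase Ptpn11 differed by -0.03 (adjusted p = 0.904). The blood cell list had 23 tested genes with a median of 0.09, and Itgam, an integrin chain of myeloid cells, differed by 0.18 (adjusted p = 0.575). The Ceacam family had only 2 tested genes, with Ceacam2 at 0.30 (adjusted p = 0.362), and the brush border list had 9 with a median of 0.12, with Ezr, which links membrane and actin, at 0.13 (adjusted p = 0.44).

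**Figure D5:**
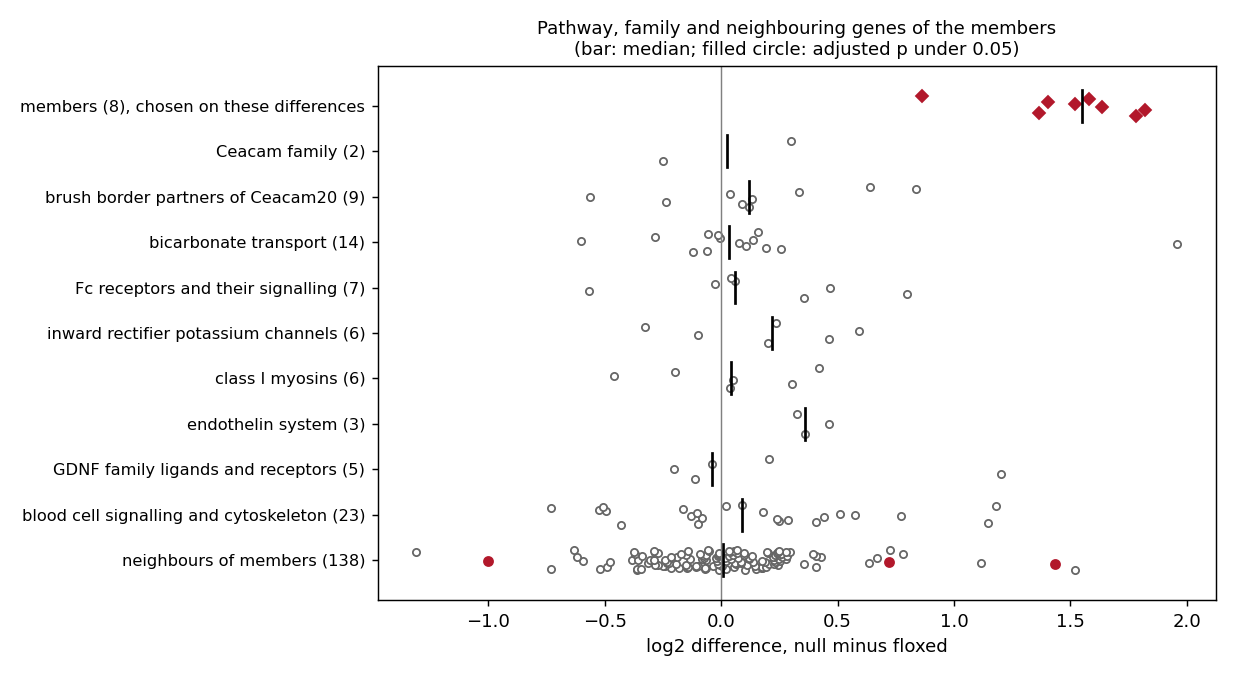
Each open or filled circle is a gene of a list (horizontal axis: log2 difference, null minus floxed; number tested in brackets) and each diamond a member; bars are medians and filled circles passed at an adjusted p under 0.05. The list medians lie between -0.04 and 0.36, and the 3 filled circles are neighbours of members on their chromosomes.

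Markers of cell types in which the members are known were checked beside these values. Embryonic stem cell markers were well above background on all arrays for 6 of 6 genes. Their linear signals were summed in units of the 75th percentile. The sums ran from 230 to 249 on the null arrays, from 308 to 349 on the induced arrays and from 207 to 358 on the floxed arrays. All 6 were lower in null against floxed and against induced, with medians of -0.30 and -0.40. By limma none passed, and 1 and 2 of the 6 had an unadjusted p under 0.05, beside 22.9% and 23.8% of all genes. The blood markers, where 10 were on the array, summed to 20.2 to 31.8 on the null arrays, 19.0 to 21.7 on the induced arrays and 19.4 to 25.1 on the floxed arrays. Spi1 was not well above background on any array and Ptprc on none of the null arrays, although both define white blood cells. Of the 8 blood markers tested, 6 were higher in null against floxed, with a median of 0.37 and a highest value of 1.18 for Tal1, and the median against induced was 0.41. None passed by limma. In each of these comparisons 4 had an unadjusted p under 0.05, all higher in null, beside 22.9% and 23.8% of all genes in either direction. The 6 markers of intestinal epithelium summed to 2.10 to 2.37 on the null arrays, 2.61 to 3.22 on the induced arrays and 2.47 to 3.37 on the floxed arrays. Ptprh and Cdh17 of that list were not well above background on any array.

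The 6 markers of fibroblasts or feeder cells summed to 2.86 to 3.56 on the null arrays, 2.75 to 2.89 on the induced arrays and 3.2 to 3.80 on the floxed arrays. In these marker lists 5 genes passed, and all 5 fell in null against floxed and against induced: the collagen genes Col1a1, Col1a2 and Col3a1, the transcription factor gene Twist2 and the intestinal transcription factor gene Cdx2. With slide as a fixed block Col1a2 and Col3a1 no longer passed in null against floxed (adjusted p = 0.218 and 0.314), nor with slide as a random block (0.0742 and 0.0751). Thy1, the other fibroblast marker tested, was at 1.37 over floxed and 1.34 over induced (adjusted p = 0.103 in both). Whether a change in the make-up of the cultures takes part in the members' values was not tested.

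Of the genes beside the members on their chromosomes, Igsf23, Egr1 and Mthfd2 passed. Within 500 kb of a member's probe, 138 other genes were tested, and 3 of them (2.17%, beside 1.84% of all genes) passed in null against floxed. Igsf23, an immunoglobulin superfamily gene 52.1 kb from Ceacam20, was higher in null than in floxed by 0.72 ± 0.12 (limma adjusted p = 0.0235) and than in induced by 0.57 ± 0.12 (adjusted p = 0.0464). Mthfd2, a mitochondrial enzyme of folate metabolism with a probe 2.85 kb from that of Slc4a5, fell in null, with differences of -1.0 ± 0.20 against floxed (adjusted p = 0.0438) and -1.09 ± 0.20 against induced (adjusted p = 0.0354). Egr1, an immediate early transcription factor 175 kb from Gfra3, was higher in null than in floxed by 1.43 ± 0.22 (adjusted p = 0.0213) and differed from induced by 0.88 ± 0.22 (adjusted p = 0.0799). None of the 3 passed in null against floxed with slide as a random block or as a fixed block. With the fixed block the limma adjusted p was 0.286 for Igsf23, 0.410 for Mthfd2 and 0.216 for Egr1. That fit rests on null array 3 and floxed array 3, so its differences are those within slide 2: 0.53, -0.49 and 0.68. In null against induced all 3 passed with slide as a fixed block (limma adjusted p = 0.0124, 0.00258 and 0.00288). With a random block they passed there as well (limma adjusted p = 0.0182, 0.00962 and 0.0242). More of all genes passed in those fits too. Without floxed array 3, 26 of the 138 neighbours passed in null against floxed, beside 24.9% of all genes.

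Fcgr2b and Arhgap30 lie on the same chromosome with probes 449 kb apart, so their windows share genes. None of the 28 tested neighbours of Fcgr2b or the 31 of Arhgap30 passed in any of the 3 comparisons by limma, with median differences between null and floxed of 0.05 and 0.10. In induced against floxed, 0 of the 138 neighbours passed and 6 had an unadjusted p under 0.05, beside 5.9% of all genes.

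The promoter table of RefSeq (GRCm38.p6) held sequence for 7 of the members, with 10 promoters in all. Promoters of Slc4a5 and Edn2 are shown because these members differ most in how the floxed arrays behaved, alike for Slc4a5 and far apart for Edn2. Each line is the 250 bases before the annotated start on the plus strand, and capitals mark CG.
Slc4a5, chr6:83237125-83237374: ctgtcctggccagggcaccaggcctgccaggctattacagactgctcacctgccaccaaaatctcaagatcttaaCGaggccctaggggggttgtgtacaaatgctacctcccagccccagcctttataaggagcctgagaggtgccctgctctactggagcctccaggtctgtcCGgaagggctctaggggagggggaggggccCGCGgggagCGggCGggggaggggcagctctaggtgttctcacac
Edn2, chr4:120160956-120161205: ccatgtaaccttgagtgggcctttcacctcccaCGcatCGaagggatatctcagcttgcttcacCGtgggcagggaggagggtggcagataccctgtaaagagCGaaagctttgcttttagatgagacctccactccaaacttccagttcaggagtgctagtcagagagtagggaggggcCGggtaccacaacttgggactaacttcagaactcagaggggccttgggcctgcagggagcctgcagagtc
These stretches hold 6 CG in Slc4a5 and 5 in Edn2. Over 300 bases, the promoters of the 7 members held between 1 and 9 CG, and the median of all 32851 promoters was 7.

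Motifs were searched on both strands of the 300 bases. The octamer ATGCAAAT was in none of the 10 member promoters and in 1.74% of all promoters. TATAAA was in 2 member promoters (Kcnj16 and Slc4a5) and in 13.6% of all, CCAAT in 2 (Arhgap30 and Kcnj16) and in 37.4% of all, and GGGCGG in 2 (Kcnj16 and Slc4a5) and in 35.7% of all. CACGTG was in none of the 10 and in 7.15% of all. None of these motifs is contained in another, and a missing match says only that the letters are not in the window.

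Over the 9 arrays the 8 members gave 28 pairs with Pearson r between 0.409 (Kcnj16 and Gfra3) and 0.972 (Fcgr2b and Myo1g) and a median of 0.869, which is a description, since all share arrays, groups and the choice by high null values. The named genes outside the members with the profile most like their mean were Etv4 (r = 0.991), Slc6a8 (0.990), Tcf15 (0.988), Sdf2l1 (0.987), Pex26 (0.987), Dapp1 (0.986), Slc43a1 (0.986) and Cherp (0.983), each over 9 arrays. For single members the closest profiles were Phox2a for Ceacam20 (r = 0.977), Noct for Slc4a5 (0.987), Syne2 for Fcgr2b (0.992), Insig1 for Kcnj16 (0.982), Slc43a1 for Myo1g (0.994), Arxes1 for Arhgap30 (0.983), Bcr for Edn2 (0.991) and Ttc3 for Gfra3 (0.968).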

How the data were processed

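Per the file headers, the authors deposited Agilent Feature Extraction output (10.7.3.1) of 9 single-colour arrays, with intensity columns for processed (background-subtracted), mean and background signals. The authors' deposited value table, also an intensity, held the mean signal of each spot. From 50 ng RNA, per the labels, Cy3-labelled cRNA was made. Here outlier and control spots were left out, spots of a probe averaged on the linear scale, and log2 values taken relative to the 75th percentile of each array. A probe was kept where it was well above background on all 3 arrays of a group; the brightest kept probe stood for a gene. limma 3.58.1 in R 4.3.3 was fitted to 3 group means over 9 arrays, with Benjamini-Hochberg adjustment over 19909 genes and a threshold of 0.05. The number of arrays limits the precision. On simulated data with 200 changed genes, changes of log2 1 were recovered at 75%, 70% and 68% in null against floxed, null against induced and induced against floxed. Of the genes that passed there, 2.83%, 6.25% and 6.55% were false. The simulated arrays had independent noise, with no slide effect and no array that stood apart, so these rates need not hold for the arrays here.

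The members, gene lists and marker lists were chosen with earlier results of these data known. The averaging of Fcgr2b spots and the rule that most of them be above background were set after its spots were seen. Named genes were the members, Xpc, up to 3 genes of a list or neighbourhood that passed in each direction, the gene of each list with the strongest signal, and the closest profiles. Replicate numbers did not pair arrays: deviations of same-numbered arrays correlated between -0.106 and 0.0871. The single results of 1 pathway list and 1 marker list are not reported here.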

Additional observations from a re-analysis of the deposited data

How the results depend on the processing

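All 8 members stayed higher in null than in floxed and in induced under each alternative in which they were tested. The choice of members largely set this direction in advance, since the alternatives use the same arrays. The members' median excess over floxed, 1.55, was 0.86 with normexp background correction and 0.82 with raw mean signals. It was 0.91 with slide as a fixed block, which is the same quantity as the difference within slide 2. Of the slides, only slide 2 holds both null and floxed arrays, namely null array 3 and floxed array 3. The median excess over induced, 1.31, was 0.83 with normexp and 0.77 with raw mean signals. In induced against floxed the median was -0.25 with slide as a fixed block, in which floxed array 3 alone stands for floxed. With that block Fcgr2b stood at -0.56, Myo1g at -0.27, Arhgap30 at -0.22, Edn2 at -2.21 and Kcnj16 at 0.15 in this comparison. Slc4a5 there turned to 0.0037 with quantile normalization, 0.017 with normexp, 0.037 with raw mean signals, 0.024 with the mean over its probes and 0.050 at its other probe, and ranged from -0.051 to 0.051 when single arrays were left out. Leaving out single arrays gave 0 to 2 members passing there. The causes of these shifts were not tested. Fcgr2b moved little (1.86, 1.45 and 0.41) when its spots were averaged on the log2 scale, an alternative chosen after seeing the data.

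Counts of passing genes moved widely. For null against floxed, 366 became 591 with normexp, 73 with no filter, 50 and 102 with slide as a fixed and a random block, 161 with the replicate block and 81 with only those groups in the fit, and 79 to 4951 when single arrays were left out, the highest without floxed array 3. For null against induced, 440 became 63 with no filter, 3227 and 1781 with slide as a fixed and a random block, 188 with the replicate block and 2770 with only those groups, and 61 to 3627 when single arrays were left out. For induced against floxed, 1 became 0 with quantile normalization, normexp, raw mean signals, no filter, the strict filter and slide as a random block, 170 with slide as a fixed block, and 0 to 156 when single arrays were left out. With the strict filter (well above background on all 9 arrays) Fcgr2b, Kcnj16, Arhgap30 and Gfra3 were not tested.

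Over all 15 lists, the count in null against floxed, 5, became 3 with no filter and with slide as a fixed or a random block, and 3 to 44 when single arrays were left out. In null against induced, 5 became 3 with normexp, no filter, the strict filter and the replicate block, 32 and 15 with slide as a fixed and a random block and 29 with only those groups, and 2 to 37 when single arrays were left out. In induced against floxed, 0 became 4 with slide as a fixed block, and 0 to 4 when single arrays were left out. Of the neighbours, 3 in null against floxed became 6 with normexp, 0 with no filter, slide as a fixed or a random block and only those groups, and 1 with the replicate block, and 0 to 26 when single arrays were left out. In null against induced, 2 became 7 with normexp and raw mean signals, 0 with no filter and the replicate block, 1 with every probe as its own feature, 18 and 11 with slide as a fixed and a random block and 16 with only those groups, and 0 to 20 when single arrays were left out. In induced against floxed, 0 became 1 with slide as a fixed block and 0 to 2 when single arrays were left out. Xpc in null against floxed was -1.52 (limma adjusted p = 0.178) with slide as a fixed block, and in induced against floxed ranged from -1.51 to -1.30 when single arrays were left out, passing without floxed array 3 (adjusted p = 0.0316). With raw mean signals the null excess over floxed was smaller for all 8 members. For the 4 tested with the strict filter it was 1.16 for Ceacam20, 1.19 for Slc4a5, 1.17 for Myo1g and 0.97 for Edn2. For the other 4, whose probes were nearer background, it lay between 0.36 and 0.68.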
